A study of Mus musculus with 18 samples.

Results

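The cadherin superfamily genes outside the clustered protocadherins were followed from cortical progenitors to neurons: cadherins, non-clustered protocadherins, the Celsr cadherins and the Fat cadherins. Members were the protein-coding genes whose symbol is Cdh, Pcdh, Celsr or Fat followed by a number (Pcdh11x included), which gave 42 of the 38250 features counted. The naming rule uses no measured value. They comprised 5 type I and 13 type II classical cadherins, 5 atypical cadherins, 5 delta-1 and 5 delta-2 protocadherins, 2 other non-clustered protocadherins, 3 Celsr genes and 4 Fat genes. Poly-A RNA had been sequenced from cells of the lateral cortex of C57BL/6 mouse embryos at embryonic day 14.5, sorted by fluorescence after the meninges and ganglionic eminences were removed. All groups carried the same pair of reporters, which the genotype label gives as Btg2GFP/Tubb3GFP, whereas the titles call the Btg2 reporter RFP. Proliferating progenitors (PP) were the Btg2-negative cells, differentiating progenitors (DP) the Btg2-positive cells, since Btg2 marks progenitors that turn to making neurons, and the third group (Neuron) the Tubb3-positive cells. Each group had 3 libraries, each from pooled cells of more than 3 embryos of different litters, and each library had been sequenced in a single-read and a paired-end run, whose counts were added.

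Cadherins hold cells together through repeated calcium-binding domains outside the cell. Classical cadherins pass force and signals to actin through catenins and build the belt of adherens junctions that keeps radial glia attached at the ventricular surface, from which newborn neurons withdraw. Non-clustered protocadherins lack the catenin-binding tail and act in sorting, axon growth and synapse formation, partly through the WAVE actin-nucleation complex. Celsr proteins are core components of planar cell polarity, and Fat proteins are giant cadherins that pair with Dachsous and act on polarity and on growth through the Hippo pathway.

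Promoter sequence is given for 4 members, to show what lies in front of 2 genes from a row of neighbouring cadherins that were higher in Neuron (Cdh9 and Cdh12) and of the Celsr genes that were higher in DP against PP (Celsr2 and Celsr3). The 250 bases before the start of transcription come from RefSeq on GRCm38.p6, in which 28 of the 42 members matched with 31 promoters. Capitals mark an E-box, the hexamer type that proneural basic helix-loop-helix factors bind, searched on both strands as CAGATG, which reads CATCTG on the other strand, and as CAGCTG, which reads the same on either. The hexamers differ at 1 letter, so no stretch can match as both at the same place. Cdh9 at chr15:16728665-16728914 and Cdh12 at chr15:21111202-21111451 lie on the plus strand, and each holds CAGCTG, 135 and 143 bases before the start. Celsr2 at chr3:108415580-108415829 lies on the minus strand and holds CATCTG 58 bases before its start. Celsr3 at chr9:108825795-108826044 on the plus strand holds neither hexamer in this window. Cdh9 and Cdh12 are shown because they are the 2 member promoters that hold CAGCTG. The promoters of Cdh6, Cdh10 and Cdh18, from the same row, hold neither hexamer.
Cdh9: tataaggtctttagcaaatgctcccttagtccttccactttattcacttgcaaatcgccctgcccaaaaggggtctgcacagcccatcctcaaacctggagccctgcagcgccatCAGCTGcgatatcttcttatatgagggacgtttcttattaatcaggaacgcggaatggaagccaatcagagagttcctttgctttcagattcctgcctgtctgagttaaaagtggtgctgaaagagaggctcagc
Cdh12: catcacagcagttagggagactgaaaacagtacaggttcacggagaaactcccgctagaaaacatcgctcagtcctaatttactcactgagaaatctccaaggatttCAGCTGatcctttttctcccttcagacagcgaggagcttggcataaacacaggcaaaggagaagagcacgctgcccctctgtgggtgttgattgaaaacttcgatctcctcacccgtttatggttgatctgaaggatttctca
Celsr2: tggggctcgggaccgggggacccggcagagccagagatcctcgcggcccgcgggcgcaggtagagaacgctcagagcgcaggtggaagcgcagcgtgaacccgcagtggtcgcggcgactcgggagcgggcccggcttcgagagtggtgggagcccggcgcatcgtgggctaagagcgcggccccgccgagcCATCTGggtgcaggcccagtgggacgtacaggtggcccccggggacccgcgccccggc
Celsr3: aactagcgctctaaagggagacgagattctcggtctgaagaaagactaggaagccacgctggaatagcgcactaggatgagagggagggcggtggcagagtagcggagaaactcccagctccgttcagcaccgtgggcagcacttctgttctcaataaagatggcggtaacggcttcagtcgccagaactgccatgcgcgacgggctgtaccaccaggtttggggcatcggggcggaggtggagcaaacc

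Either hexamer was found in 5 of the 31 member promoters (16.1%), against 25.5% of 32851 promoters of the same length in the whole table. CAGATG stood in 3 of 31 against 14.4%, and CAGCTG in 2 of 31 against 13.0%. The promoters with CAGATG were those of Celsr2, of Cdh24, which passed in no comparison, and a promoter of Cdh7, which was higher at both steps. The median GC content was 58.0% in member promoters and 52.4% in all. These are counts of letters in a window and say nothing of binding.

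Library totals ranged from 34337209 to 55935128 counts. Levels are CPM (read counts relative to library size) on the trimmed-mean (TMM) scale, and genes are compared with each other only per kilobase of their gene model (RPKM). Values in the text follow the order L222, L355, L393 in PP, then L223, L356, L394 in DP, then L224, L357, L395 in Neuron, and means carry the SD over 3 libraries. Summed levels of proliferating progenitor markers ran from 5403 to 6319 CPM in PP, from 2494 to 3625 in DP and from 298.0 to 380.1 in Neuron. Those of differentiating progenitor markers ran from 1250 to 1276, from 2685 to 3964 and from 568.9 to 626.9. Neuron markers ran from 125.3 to 300.9, from 1689 to 2379 and from 7272 to 7822. The groups did not overlap in any of these sums. The differentiating progenitor list includes Btg2 and the neuron list Tubb3, the genes of the sorting reporters, so those sums are not independent of the sort. Btg2 RNA itself averaged 445.2 ± 67.6 CPM in PP, 888.1 ± 251.1 in DP and 168.9 ± 22.2 in Neuron. Differences were tested with edgeR's quasi-likelihood test and adjusted by Benjamini-Hochberg over all 18627 features tested, with a threshold of 0.05. In such sorted bulk samples, fewer cells expressing a gene and less RNA of it per cell cannot be told apart.

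Of the 42 members, 38 passed the filter on low counts. The other 4 had at most 12 reads in any group: Cdh16, a kidney cadherin, Cdh19, Cdh26 and Fat2. From PP to DP, 12 of 38 members were higher and 13 lower, where 21.3% of all features were higher and 20.2% lower. From DP to Neuron, 23 were higher and 6 lower, where 33.1% of all features were higher and 34.2% lower. The median log2 difference of the members was 0.01 from PP to DP, against -0.02 for all features, and 0.51 from DP to Neuron, against -0.04. Between Neuron and PP, 22 members were higher and 9 lower, where 36.7% and 38.6% of all features were. The libraries of the groups did not overlap for 27, 29 and 32 members in these 3 comparisons, against 49.7%, 72.4% and 78.6% of all features. Counting either direction, 65.8%, 76.3% and 81.6% of the tested members passed in the 3 comparisons, against 41.4%, 67.3% and 75.3% of all features and 45.5%, 71.4% and 78.6% of protein-coding genes. Differences of at least 2-fold were found for 9 members higher and 7 lower from PP to DP, 15 and 5 from DP to Neuron and 16 and 7 from PP to Neuron, where 13.9%, 33.5% and 42.7% of all features had one. The DP libraries enter both steps, so the results of the steps are not independent.

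**Figure D1:**
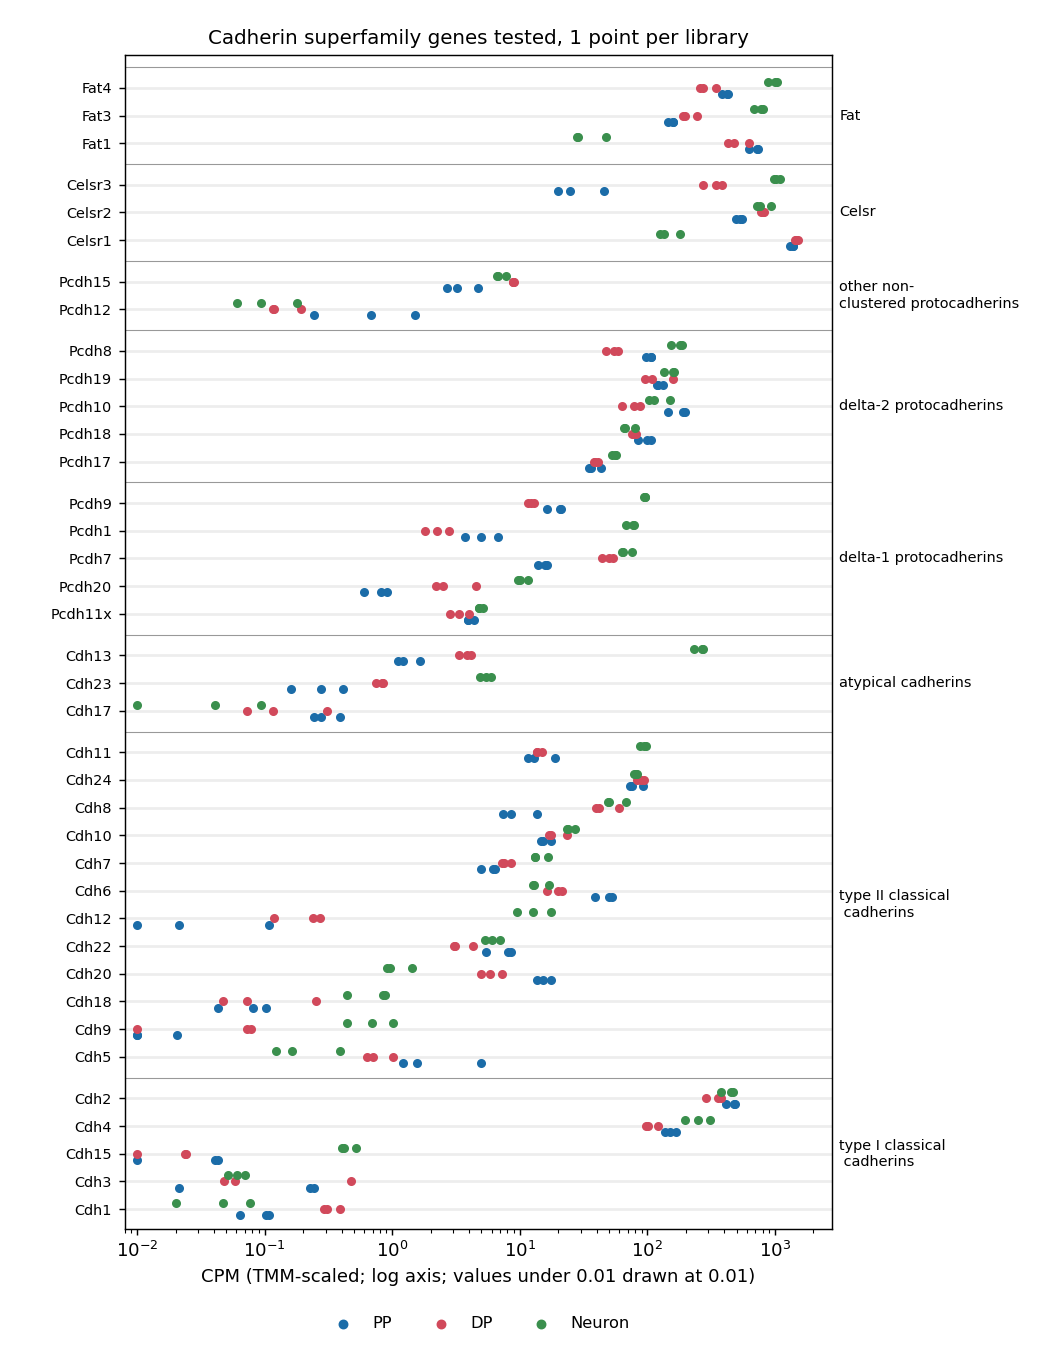
CPM on a log axis for each of the 38 tested members, 1 point per library in PP, DP and Neuron, grouped by family, with values under 0.01 drawn at 0.01. Cdh13, Pcdh1 and Cdh12 had Neuron points far to the right of the other groups, and Celsr1 and Fat1 far to the left.

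The Celsr genes exchanged places. Celsr1, the family member known for planar polarity in epithelia, was the member with the highest RPKM in PP and in DP. Celsr3, known for its role in the growth of forebrain axon tracts, held that rank in Neuron. Celsr2, which acts with Celsr3 in axon guidance and in cilia, held rank 4 in PP and rank 2 in DP and in Neuron.

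Celsr1 (mm9 chr15:85729188-85864207) stood at 1385, 1375 and 1315 CPM in PP, at 1509, 1460 and 1428 in DP and at 180.9, 124.5 and 135.0 in Neuron. All progenitor libraries lay above all Neuron libraries. The Neuron level was 9.99-fold lower than that of DP (log2 -3.32 ± 0.13 SE, adjusted p = 9.36e-10). Between PP and DP the log2 difference was 0.11 ± 0.12 (SE, adjusted p = 0.485).

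Celsr3 (mm9 chr9:108728651-108755294) read 45.6, 24.8 and 20.0 CPM in PP, against 275.0, 382.6 and 343.5 in DP and 1103, 1027 and 974.0 in Neuron. The 3 groups were fully separated, and the gene rose at each step. It was 11.1-fold above PP in DP (log2 3.47 ± 0.26 SE, adjusted p = 1.62e-06) and 3.10-fold above DP in Neuron (log2 1.63 ± 0.24 SE, adjusted p = 7.72e-05). In the authors' deposited table its log2 fold changes are 3.42 and 1.64.

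Celsr2 (mm9 chr3:108193769-108218470) had 546.8, 493.0 and 536.3 CPM in PP, against 809.9, 815.0 and 778.5 in DP and 923.6, 768.9 and 724.2 in Neuron. It rose 1.53-fold from PP to DP (log2 0.61 ± 0.09 SE, adjusted p = 0.000271). The DP libraries then lay inside the range of the Neuron libraries, with a log2 difference of 0.01 ± 0.09 (SE, adjusted p = 0.944).

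Per length, the summed level of the 3 genes was 170.9 ± 4.97 RPKM in PP, 230.8 ± 4.71 in DP and 172.9 ± 17.1 in Neuron. Within that sum, the share of Celsr1 was 71.8% ± 1.42 in PP, 57.3% ± 1.64 in DP and 7.63% ± 0.883 in Neuron. Celsr3 made up 1.52% ± 0.638, 12.5% ± 1.94 and 52.0% ± 1.94, and Celsr2 26.7% ± 1.30, 30.1% ± 0.339 and 40.4% ± 1.21. The makeup of the family thus differed between PP and Neuron far more than its sum did.

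**Figure D2:**
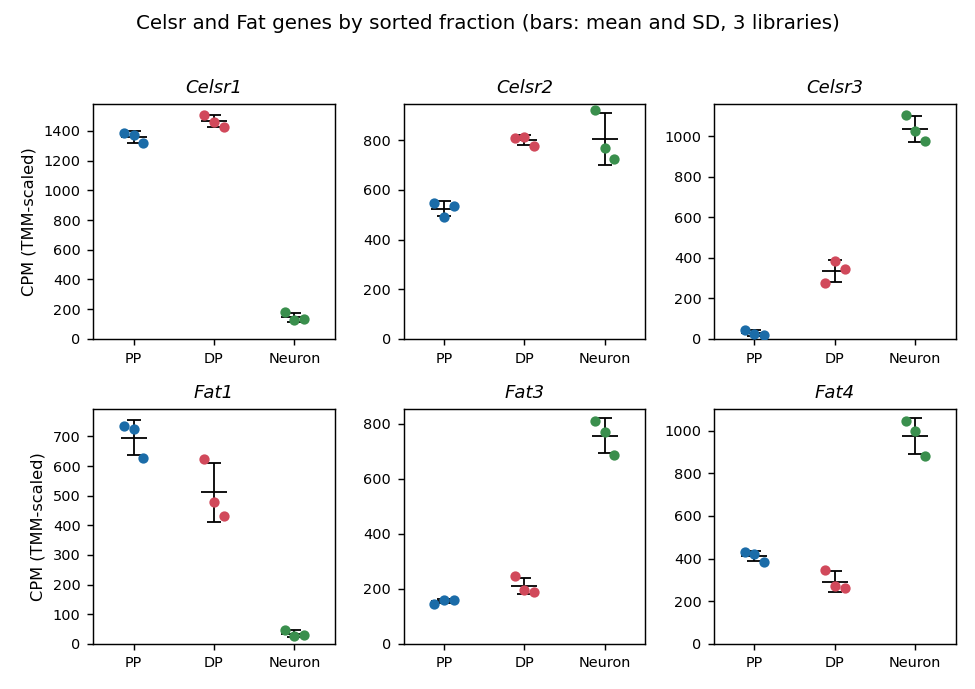
CPM of the 3 Celsr and the 3 tested Fat genes, 1 point per library, with the mean and SD of 3 libraries as bars. Celsr1 and Fat1 drop in Neuron, Celsr3 and Fat3 climb from PP through DP to Neuron, and Fat4 is lowest in DP.

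The Fat genes followed a like division. Fat1, which acts on actin at cell contacts, was highest in progenitors, and Fat3 and Fat4 were highest in Neuron. Fat3 shapes dendrites of retinal neurons, and Fat4 is the receptor partner of Dachsous 1 in the cortex.

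Fat1 (mm9 chr8:46035562-46137611) read 733.6, 726.7 and 627.4 CPM in PP, against 623.6, 479.4 and 431.9 in DP and 47.4, 27.8 and 28.8 in Neuron. Every Neuron library was far below every progenitor library, and the Neuron level was 14.8-fold lower than that of DP (log2 -3.88 ± 0.21 SE, adjusted p = 1.47e-08). DP differed from PP by -0.44 ± 0.19 on the log2 scale (SE, adjusted p = 0.081), without overlap of the libraries. That difference passed in 6 alternatives, among them those that left out DP library L223 (adjusted p = 0.0286) or Neuron library L224 (adjusted p = 0.016) and the fit with a block for consecutive library numbers (log2 -0.47, adjusted p = 0.00715). The adjusted p in the authors' deposited table is 0.0626.

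Fat3 (mm9 chr9:15714649-16182681) had 146.1, 159.4 and 160.0 CPM in PP, against 245.7, 195.6 and 190.0 in DP and 810.5, 771.7 and 687.2 in Neuron. It rose 1.36-fold from PP to DP (log2 0.44 ± 0.10 SE, adjusted p = 0.00507) and 3.60-fold from DP to Neuron (log2 1.85 ± 0.11 SE, adjusted p = 2.08e-08), with no overlap at either step. Fat4 (mm9 chr3:38785862-38910907) had 429.9, 423.2 and 384.6 CPM in PP, against 346.4, 270.4 and 259.7 in DP and 1046, 997.4 and 882.6 in Neuron. It was 1.41-fold below PP in DP (log2 -0.50 ± 0.11 SE, adjusted p = 0.00372) and 3.34-fold above DP in Neuron (log2 1.74 ± 0.11 SE, adjusted p = 6.50e-08). A non-coding RNA, C230034O21Rik, overlaps Fat4 on the other strand, at mean levels of 13.2, 6.43 and 16.0 CPM in PP, DP and Neuron, and strand use in the counting is not stated.

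Of the summed Fat RPKM, Fat1 held 59.6% ± 1.21 in PP, 55.5% ± 1.17 in DP and 2.39% ± 0.595 in Neuron. Fat4 held 30.5% ± 0.308, 27.4% ± 0.579 and 58.5% ± 0.357, and Fat3 held 9.91% ± 1.05, 17.1% ± 0.602 and 39.1% ± 0.257. For each of the 3 genes, the Neuron shares lay outside the range of the shares in PP and DP.

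**Figure D3:**
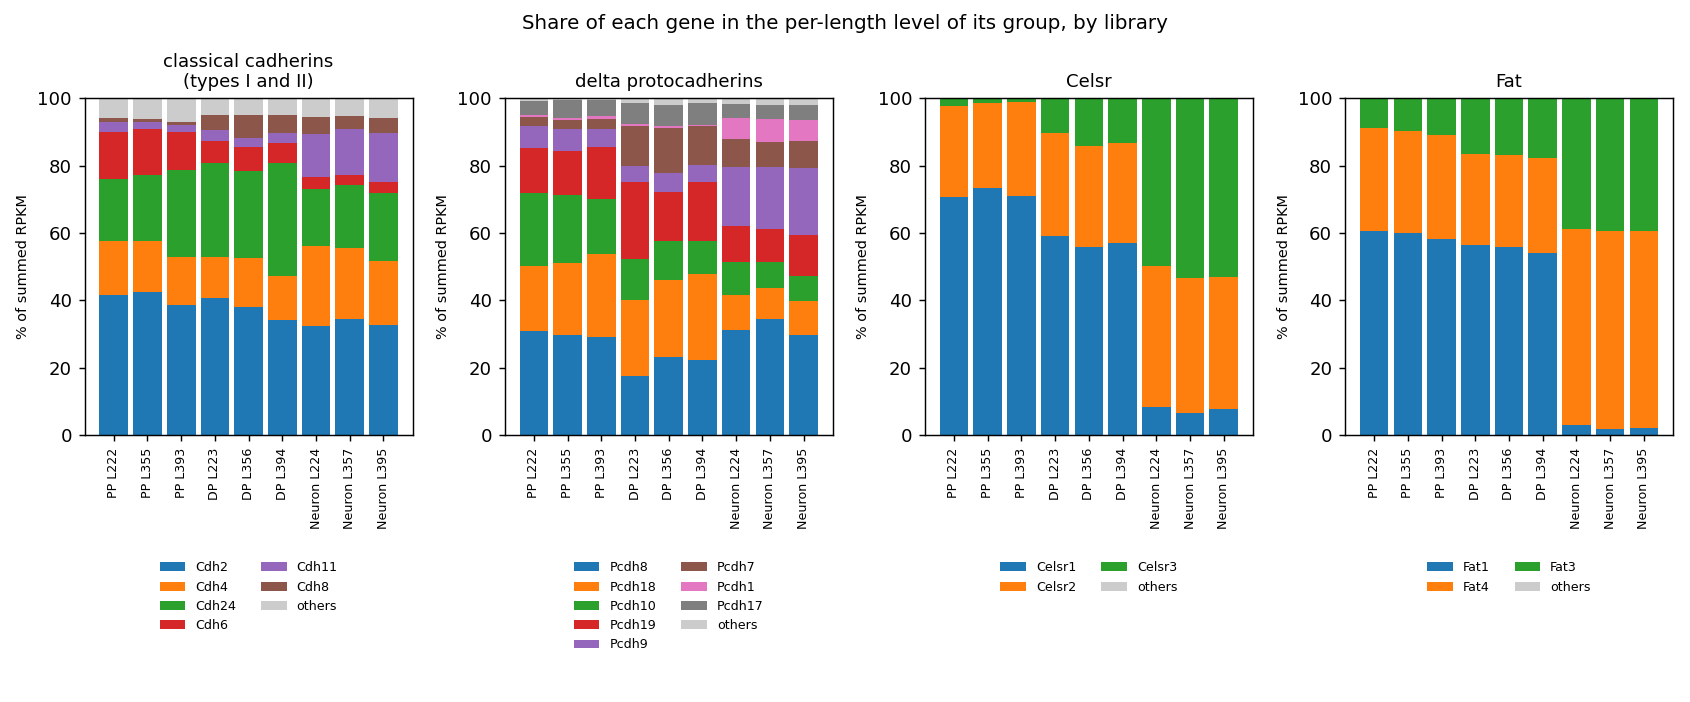
Percent of the summed RPKM of each gene group held by each gene, 1 bar per library, for classical cadherins, delta protocadherins, Celsr and Fat genes. Celsr1 and Fat1 hold most of their bars in all progenitor libraries and a thin slice in all Neuron libraries, whereas Cdh2 holds from 32.5% to 42.7% of the classical cadherin sum in every library.

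Among the type I classical cadherins, which bind strongly and mark the main adherens junctions of a tissue, 2 genes carried nearly all the signal. Cdh2 encodes N-cadherin, the cadherin of neural adherens junctions, and Cdh4 encodes R-cadherin. Both were lower in DP than in PP and in Neuron.

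Cdh2 stood at 484.9, 480.5 and 409.7 CPM in PP, at 379.8, 360.0 and 286.9 in DP and at 470.4, 452.5 and 377.6 in Neuron. DP libraries lay below all PP libraries but overlapped the Neuron libraries. The DP level was 1.34-fold lower than that of PP (log2 -0.42 ± 0.12 SE, adjusted p = 0.0139) and rose 1.27-fold to Neuron (log2 0.34 ± 0.12 SE, adjusted p = 0.0233). Without DP library L394 neither step passed (adjusted p = 0.053 and 0.0938). The second step also failed without Neuron library L224 (0.083), without L357 (0.0725) and with upper-quartile scaling (0.053), all adjusted p. Neuron and PP differed by -0.08 ± 0.12 (log2, SE).

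Cdh4 had 167.6, 150.6 and 137.0 CPM in PP, against 101.3, 121.4 and 96.7 in DP and 308.1, 249.0 and 195.9 in Neuron. The groups did not overlap. It was 1.43-fold below PP in DP (log2 -0.51 ± 0.15 SE, adjusted p = 0.0161) and 2.36-fold above DP in Neuron (log2 1.24 ± 0.15 SE, adjusted p = 1.51e-05). The first of these differences lost the call without PP library L222 (adjusted p = 0.0567), DP library L223 (0.0513) or L394 (0.0629), and without L222, L223 and L224 together (0.0551).

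The remaining type I genes were near the limit of detection. Cdh1, which encodes the epithelial E-cadherin, had 12 reads in PP, 44 in DP and 6 in Neuron over 3 libraries each, and was the only member higher in DP than in both other groups, as were 4.37% of all features. Its log2 differences were 1.82 ± 0.39 (SE, adjusted p = 0.0032) and -2.75 ± 0.45 (SE, adjusted p = 0.000187). The summed level of the 4 epithelial markers found ran from 0.876 to 1.4 CPM in PP, from 0.756 to 1.53 in DP and from 0.0936 to 0.224 in Neuron, and their part in the result was not tested. Markers of choroid plexus and hem moved in the direction of Cdh1. Of the 9 tested, 8 were higher in DP against PP and 8 were lower in Neuron against DP, and none of the 10 listed was at 0 in all libraries. Their summed level ran from 25.8 to 66.1 CPM in PP, from 75.4 to 122.8 in DP and from 55.6 to 66.9 in Neuron, and the part of these cells in the Cdh1 result was not tested. Cdh3, which encodes P-cadherin, passed in no comparison with at most 25 reads per group. Cdh15, the muscle cadherin, had 4, 2 and 58 reads and was higher in Neuron against DP (log2 4.67, adjusted p = 2.86e-05, and log2 4.07 without DP library L356). Its gene lies within Gm20388 on the same strand, a feature at 167.8, 132.6 and 134.8 CPM, so assignment of its few reads is uncertain.

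Type II classical cadherins bind more weakly and are known for patterned expression in brain regions and layers. Of the 12 tested, 3 were higher and 4 lower in DP against PP, and 7 were higher and 3 lower in Neuron against DP. In either direction these are 58.3% and 83.3% of the tested genes, beside 41.4% and 67.3% of all features. Their summed level was 60.8 ± 1.36 RPKM in PP, 54.9 ± 0.636 in DP and 73.1 ± 4.75 in Neuron. Cdh24 made up the largest part of it in each group, with 29.4, 32.6 and 29.7 RPKM.

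Cdh11, first described in osteoblasts and also found in migrating neural cells, read 19.0, 11.5 and 12.8 CPM in PP, against 14.8, 13.7 and 13.5 in DP and 97.4, 93.3 and 86.8 in Neuron. PP and DP overlapped (log2 -0.04 ± 0.15 SE, adjusted p = 0.868), and Neuron was 6.60-fold above DP (log2 2.72 ± 0.15 SE, adjusted p = 1.93e-08). Cdh8, a cadherin of frontal cortex and its connections, changed at the other step. It read 13.8, 8.56 and 7.31 CPM in PP, against 39.8, 59.8 and 42.0 in DP and 68.0, 49.0 and 49.6 in Neuron, a 4.82-fold rise to DP (log2 2.27 ± 0.24 SE, adjusted p = 1.85e-05) and then a log2 difference of 0.23 ± 0.22 (SE, adjusted p = 0.365). The gain of Cdh8 was thus measured between the progenitor groups, and that of Cdh11 between DP and Neuron.

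Cdh12 had 0.107, 0.0214 and 0 CPM in PP, against 0.118, 0.271 and 0.241 in DP and 17.5, 12.7 and 9.50 in Neuron, from 5, 29 and 1742 reads. It was 61.3-fold above DP in Neuron (log2 5.94 ± 0.38 SE, adjusted p = 5.25e-08). The small rise from PP to DP (log2 2.41 ± 0.80 SE, adjusted p = 0.0315) rested on few reads and was lost in 5 alternatives: without PP library L355 (adjusted p = 0.0981) or L393 (0.102), without DP library L356 (0.105) or L394 (0.0715), and on single-read runs (0.127). Without L393 the difference was log2 1.8, and without PP library L222 it was log2 4.03 (adjusted p = 0.0112). The authors' deposited table gives log2 fold changes of 2.14 and 5.91 for Cdh12 and leaves the adjusted p empty.

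Cdh7 had 6.44, 6.11 and 4.97 CPM in PP, against 7.28, 8.52 and 7.57 in DP and 13.1, 13.2 and 16.7 in Neuron. It rose 1.84-fold from DP to Neuron (log2 0.88 ± 0.14 SE, adjusted p = 0.000119). Its rise from PP to DP (log2 0.42 ± 0.14 SE, adjusted p = 0.031) was lost without PP library L355 (adjusted p = 0.0513) or L393 (0.104), without DP library L356 (0.109) or L394 (0.0532), on paired-end runs (0.0778) and with upper-quartile scaling (0.0547). Cdh10 ranged from 14.7 to 17.6 CPM in PP, from 16.8 to 23.4 in DP and from 23.6 to 27.3 in Neuron. Its rise from DP to Neuron (log2 0.37 ± 0.13 SE, adjusted p = 0.026) did not pass without DP library L223 (adjusted p = 0.0902) or L394 (0.0929), without Neuron library L224 (0.0963), and in 3 other alternatives, with an adjusted p of 0.225 without L222, L223 and L224. From PP to DP, Cdh10 differed by 0.29 ± 0.13 (log2, SE, adjusted p = 0.105), which passed without DP library L223 (0.0406).

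Cdh20 and Cdh6 went the other way and were lower at both steps, as was Cdh5, described below. In all, 3 of the 38 tested members were lower at both steps, against 10.9% of all features. Cdh20 read 13.7, 17.6 and 15.1 CPM in PP, against 7.28, 5.85 and 4.97 in DP and 0.913, 1.42 and 0.953 in Neuron, with the 3 groups separated. It was 2.57-fold below PP in DP (log2 -1.36 ± 0.17 SE, adjusted p = 8.82e-05) and 5.44-fold below DP in Neuron (log2 -2.44 ± 0.21 SE, adjusted p = 6.83e-07). Cdh6, a marker of cortical areas in the embryo, read 52.5, 50.3 and 39.0 CPM in PP, against 20.0, 21.5 and 16.5 in DP and 17.0, 12.7 and 12.8 in Neuron. The fall came mainly between PP and DP, at 2.44-fold (log2 -1.29 ± 0.15 SE, adjusted p = 3.88e-05). The further difference to Neuron (log2 -0.45 ± 0.15 SE, adjusted p = 0.0201), where the libraries overlap, failed without DP library L223 (adjusted p = 0.0544) or L356 (0.0748) and without Neuron library L357 (0.0826) or L395 (0.078).

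Cdh22 read 8.51, 5.4 and 8.01 CPM in PP, against 4.33, 3.02 and 3.11 in DP and 7.02, 6.06 and 5.36 in Neuron, so that every DP library was the lowest. It was 2.1-fold below PP in DP (log2 -1.07 ± 0.20 SE, adjusted p = 0.00144) and rose 1.77-fold to Neuron (log2 0.82 ± 0.20 SE, adjusted p = 0.00377). Cdh24 ranged from 73.5 to 91.7 CPM in PP, from 83.4 to 94.6 in DP and from 78.7 to 82.7 in Neuron and passed in no comparison. Its log2 differences were 0.15 ± 0.09 and -0.13 ± 0.09 (SE), and the first passed without PP library L393 (adjusted p = 0.0144). Gm17606 overlaps it on the other strand at 11.8, 12.2 and 7.26 CPM. Cdh18 had 10, 18 and 96 reads and Cdh9 had 1, 7 and 92, and both were higher in Neuron against DP (adjusted p = 0.000891 and 0.000132). Without DP library L356 the difference of Cdh18 went from log2 2.45 to 3.54 (adjusted p = 0.000163). A pseudogene on the other strand, Gm5803, overlaps Cdh18 at 1.69, 2.07 and 1.92 CPM, above the means of Cdh18 itself (0.0753, 0.124 and 0.718 CPM), so its values are uncertain.

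Cdh5 encodes VE-cadherin, the junction protein of endothelium, and Pcdh12 is also known from endothelial cells. Cdh5 read 1.21, 1.56 and 4.95 CPM in PP, against 0.706, 0.639 and 1.01 in DP and 0.164, 0.122 and 0.386 in Neuron. Its reads numbered 359, 105 and 28 in these groups. PP library L393 stood apart with the highest value. Pcdh12 read 0.242, 0.683 and 1.5 CPM in PP, again highest in L393, 0.118, 0.116 and 0.193 in DP and 0.0936, 0.0610 and 0.180 in Neuron. The reads of Pcdh12 numbered 114, 19 and 14. Both were lower in DP against PP (Cdh5 log2 -1.73 ± 0.50 SE, adjusted p = 0.0168, and Pcdh12 log2 -2.53 ± 0.61 SE, adjusted p = 0.00593).

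The summed level of 10 endothelial markers was 9.61, 14.03 and 28.6 CPM in PP, against 10.4, 9.76 and 11.3 in DP and 3.44, 3.01 and 6.03 in Neuron, and 6 of the 9 tested were lower in DP against PP. None of the 10 was at 0 in all libraries. Like Cdh5 and Pcdh12, this sum was highest in PP library L393, which also had the highest sums of pericyte markers (66.2 CPM) and meningeal fibroblast markers (104.8 CPM) of all libraries. Without L393 the fall of Cdh5 from PP to DP did not pass (log2 -0.82, adjusted p = 0.0924), nor did it without DP library L356 (adjusted p = 0.0619). That of Pcdh12 passed without L393, at log2 -1.73 (adjusted p = 0.0259). The fall of Cdh5 from DP to Neuron (log2 -1.84 ± 0.65 SE, adjusted p = 0.0267) was lost in 5 alternatives. It did not pass on single-read runs (adjusted p = 0.0596) or without DP library L394 (0.0731). Nor did it pass without Neuron library L224 (0.0767) or L357 (0.0957), or without L222, L223 and L224 (0.0756). Without Neuron library L395 it was log2 -2.44 (adjusted p = 0.019). The part of these other cells in the 2 results was not tested.

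The atypical cadherins lack the classical cytoplasmic tail. Cdh13 encodes T-cadherin, which is held in the membrane by a lipid anchor and has been linked to axon growth and synapse formation. It read 1.64, 1.22 and 1.11 CPM in PP, against 3.34, 3.88 and 4.12 in DP and 267.9, 273.4 and 231.6 in Neuron. The rise to Neuron was 68.1-fold (log2 6.09 ± 0.13 SE, adjusted p = 3.74e-11), the highest log2 difference of all 38 tested members at that step. The step before it was 2.90-fold (log2 1.54 ± 0.15 SE, adjusted p = 1.18e-05). Cdh13 lies at mm9 chr8:120807633-121848821.

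Cdh23 and Pcdh15 together form the tip links of sensory hair cells. Cdh23 read 0.161, 0.278 and 0.411 CPM in PP, against 0.824, 0.852 and 0.748 in DP and 5.43, 5.93 and 4.87 in Neuron. It rose 2.77-fold (log2 1.47 ± 0.28 SE, adjusted p = 0.00139) and then 6.67-fold (log2 2.74 ± 0.22 SE, adjusted p = 4.10e-07). These levels rest on 39, 110 and 713 reads. On the other strand, 4632428N05Rik overlaps Cdh23 at 0.827, 0.276 and 0.062 CPM, in PP above the mean of Cdh23 itself (0.283 CPM). Strand use in the counting is not stated, so the low values of Cdh23 are uncertain. Pcdh15 read 2.69, 4.70 and 3.21 CPM in PP, against 9.04, 8.91 and 8.90 in DP and 7.75, 6.64 and 6.80 in Neuron. It rose 2.52-fold from PP to DP (log2 1.34 ± 0.18 SE, adjusted p = 0.000116), and only Cdh23 passed at the step to Neuron. For Pcdh15 that step was -0.34 ± 0.17 (log2, SE, adjusted p = 0.0981), which passed in 4 alternatives, among them without PP library L355 (adjusted p = 0.0261). A pseudogene at a higher level, Gm5778 (59.5, 60.7 and 47.0 CPM), lies within Pcdh15 on its strand, so its values are uncertain. Cdh17, an intestinal cadherin, had 41, 22 and 6 reads. Its log2 differences of -0.90 ± 0.54 and -1.77 ± 0.77 (SE) did not pass, but the first passed when DP library L223 was left out (adjusted p = 0.0465), and the second without DP library L394 (0.033) or Neuron library L224 (0.032).

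Several of the delta-1 protocadherins carry a motif in their tail that binds protein phosphatase 1. All 5 members of the family were higher in Neuron against DP, where 33.1% of all features were higher. In either direction 80.0% passed in DP against PP, beside 41.4% of all features. Their summed level went from 8.87 ± 0.496 RPKM in PP and 12.5 ± 1.23 in DP to 47.9 ± 1.21 in Neuron, and their share of the summed delta protocadherin RPKM was 10.3% ± 0.238, 19.4% ± 1.66 and 35.0% ± 1.14. The 5 genes reached the Neuron level by different routes.

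Pcdh1 read 3.71, 4.98 and 6.74 CPM in PP, against 2.78, 2.25 and 1.81 in DP and 77.0, 78.8 and 68.4 in Neuron. It was 2.27-fold below PP in DP (log2 -1.18 ± 0.21 SE, adjusted p = 0.000827) and then 32.7-fold higher in Neuron (log2 5.03 ± 0.21 SE, adjusted p = 1.51e-09). Pcdh9, with 20.6, 21.0 and 16.3 CPM in PP, against 12.2, 13.0 and 11.6 in DP and 95.0, 94.2 and 95.8 in Neuron, took the same course. It was 1.57-fold lower in DP (log2 -0.65 ± 0.10 SE, adjusted p = 0.000298) and 7.74-fold above DP in Neuron (log2 2.95 ± 0.10 SE, adjusted p = 4.46e-10). For both genes every DP library lay below every library of the other groups.

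Pcdh7 read 13.8, 15.8 and 16.4 CPM in PP, against 50.0, 53.8 and 44.0 in DP and 75.1, 63.1 and 64.9 in Neuron. Most of its rise came from PP to DP, at 3.21-fold (log2 1.68 ± 0.10 SE, adjusted p = 5.02e-07), followed by 1.37-fold to Neuron (log2 0.46 ± 0.10 SE, adjusted p = 0.00152). Pcdh20 read 0.913, 0.812 and 0.596 CPM in PP, against 2.21, 4.51 and 2.48 in DP and 9.74, 11.6 and 9.99 in Neuron. It rose 4.02-fold (log2 2.01 ± 0.28 SE, adjusted p = 0.000179) and then 3.38-fold (log2 1.75 ± 0.24 SE, adjusted p = 4.57e-05). Pcdh11x stayed between 2.85 and 5.18 CPM in all libraries, and its difference from DP to Neuron (log2 0.54 ± 0.15 SE, adjusted p = 0.00753) was lost on single-read runs (adjusted p = 0.0965).

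Several delta-2 protocadherins bind the WAVE complex through their tails. None of the 5 was higher in DP against PP, and 3 were lower. From DP to Neuron 3 were higher and none was lower. In either direction 60.0% passed at each step, above the 41.4% of all features from PP to DP and below the 67.3% from DP to Neuron. Their sum was 77.4 ± 2.50 RPKM in PP, 51.8 ± 2.88 in DP and 89.2 ± 6.69 in Neuron, lowest in the DP libraries.

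Pcdh8, an activity-regulated protocadherin that acts in N-cadherin internalisation at synapses, read 106.2, 106.9 and 97.5 CPM in PP, against 47.7, 59.2 and 54.3 in DP and 180.5, 187.7 and 154.1 in Neuron. DP was 1.93-fold below PP (log2 -0.95 ± 0.10 SE, adjusted p = 1.50e-05), and Neuron 3.24-fold above DP (log2 1.70 ± 0.10 SE, adjusted p = 2.18e-08). Pcdh10, needed for growth of striatal axons and thalamocortical tracts, read 197.2, 191.4 and 146.1 CPM in PP, against 87.0, 78.8 and 62.9 in DP and 151.0, 112.7 and 103.3 in Neuron. It was 2.34-fold below PP in DP (log2 -1.23 ± 0.16 SE, adjusted p = 0.000117) and 1.61-fold above DP in Neuron (log2 0.68 ± 0.16 SE, adjusted p = 0.00282). Pcdh8 passed the PP level in Neuron and Pcdh10 remained below it, by log2 0.75 ± 0.09 and -0.54 ± 0.16 (SE).

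The other delta-2 genes moved less. Pcdh17 ranged from 34.7 to 43.2 CPM in PP, from 38.5 to 40.9 in DP and from 52.9 to 56.3 in Neuron, a 1.39-fold rise to Neuron (log2 0.48 ± 0.09 SE, adjusted p = 0.000404). Pcdh18 ranged from 85.1 to 106.9, from 76.1 to 81.0 and from 65.6 to 79.5 CPM. Its fall from PP to DP (log2 -0.30 ± 0.10 SE, adjusted p = 0.0257) was lost without PP library L355 (adjusted p = 0.0726) or L393 (0.109) and without DP library L223 (0.0546) or L356 (0.0837). Its step to Neuron, -0.16 ± 0.10 (log2, SE), passed without Neuron library L224 (adjusted p = 0.0399). Pcdh19, the gene of an X-linked female-limited epilepsy, read 158.9, 96.4 and 109.6 CPM in DP, with L223 above the others, against 118.8 to 131.5 in PP and 135.7 to 161.3 in Neuron. It passed in no comparison. Without L223 it passed at both steps, lower in DP against PP (log2 -0.25, adjusted p = 0.0486) and higher in Neuron against DP (log2 0.57, adjusted p = 0.000319), and it was also higher in Neuron against PP (adjusted p = 0.00518). With a block for consecutive library numbers it was higher in Neuron against DP (log2 0.34, adjusted p = 0.0377).

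In all, 8 of the 38 members were lower in DP than in both other groups, against 4.49% of all features: Cdh2, Cdh4, Cdh22, Pcdh1, Pcdh9, Pcdh8, Pcdh10 and Fat4. They span 5 families, and they differ in where they ended. Against PP, the Neuron level was 14.4-fold higher for Pcdh1, 4.93-fold for Pcdh9, 2.36-fold for Fat4, 1.68-fold for Pcdh8 and 1.66-fold for Cdh4. It was 1.46-fold lower for Pcdh10, and did not pass for Cdh2 and Cdh22. Cdh22, Fat4, Pcdh1, Pcdh10, Pcdh8 and Pcdh9 kept both calls in all 17 alternatives, and Cdh2 and Cdh4 in 13 of them. Without DP library L394 both dropped out, without DP library L223 or PP library L222 Cdh4 did, and without Neuron library L224 or L357 Cdh2 did. A further 8 members were higher at both steps, as were 12.4% of all features: Celsr3, Fat3, Cdh13, Cdh23, Cdh12, Cdh7, Pcdh7 and Pcdh20.

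**Figure D4:**
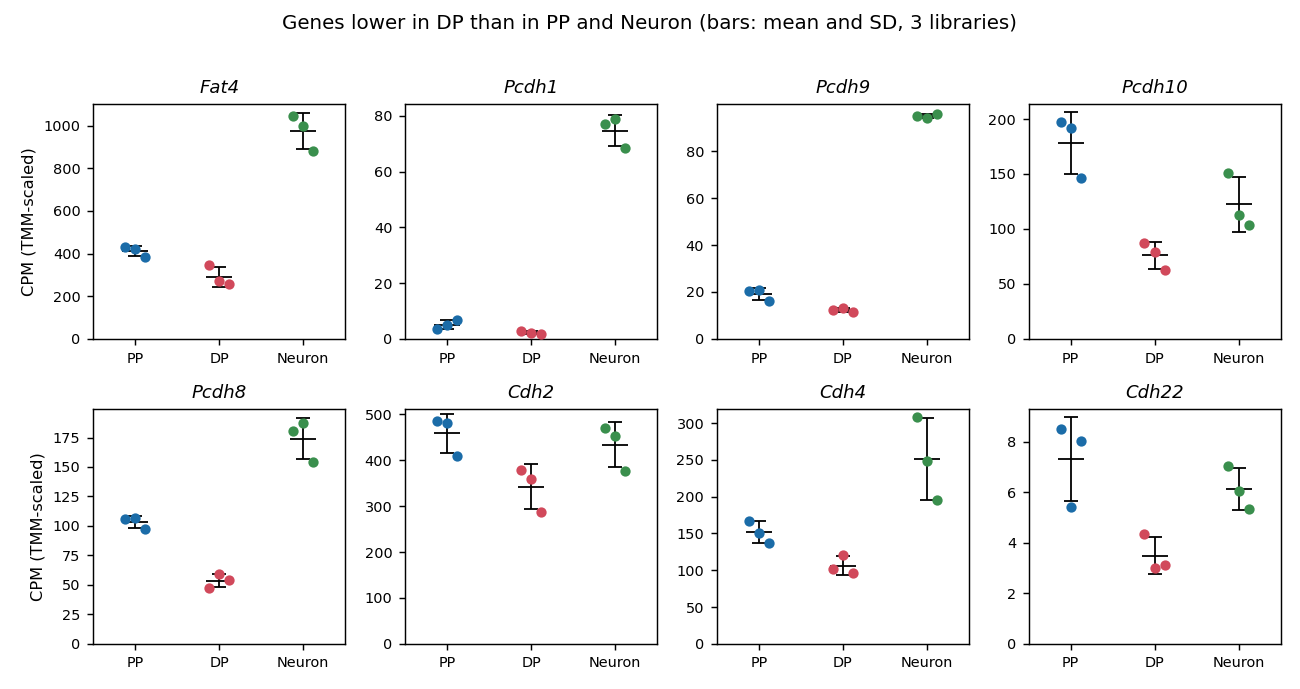
CPM of the 8 members lower in DP than in PP and in Neuron, 1 point per library, with the mean and SD of 3 libraries as bars. Pcdh1, Pcdh9 and Fat4 end well above PP in Neuron, Cdh2 and Cdh22 return to about the PP range, and Pcdh10 stays between.

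Other neuron classes were also measurable in the Neuron libraries. Summed levels of 8 Cajal-Retzius markers ran from 6.70 to 12.7 CPM in PP, from 92.0 to 112.7 in DP and from 885.3 to 1006 in Neuron, and those of 10 GABAergic interneuron markers from 166.3 to 181.0, from 115.8 to 267.1 and from 502.2 to 532.4. No marker of either list was at 0 in all libraries, and 6 of 8 and 7 of 10 were higher in Neuron against DP. They move with the members that were higher in Neuron, and their part in those results was not tested. In PP, red blood cell genes summed to between 8359 and 15290 CPM, against at most 117.6 in the other groups.

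The partners and relatives of these cadherins were read from 6 gene lists, whose counts stand beside the 41.4% of all features that passed in DP against PP and the 67.3% in Neuron against DP. By direction, 21.3% of all features were higher and 20.2% lower in DP against PP. In Neuron against DP, 33.1% were higher and 34.2% lower. Of 16 catenins and junction linkers, 4 were higher and 6 lower in DP against PP, and 8 were higher and 7 lower in Neuron against DP, which are 62.5% and 93.8% of the list. Ctnna1, the alpha-catenin of epithelia and progenitors, went from 261.0 ± 21.5 CPM in DP to 35.8 ± 5.24 in Neuron, 7.29-fold lower (adjusted p = 1.42e-09). Ctnna2, the neural alpha-catenin, went from 48.2 ± 7.89 to 399.7 ± 15.4 CPM, 8.29-fold higher (adjusted p = 6.61e-09). From PP to DP, Jup, which encodes plakoglobin, rose 2.92-fold to 10.1 ± 1.76 CPM (adjusted p = 7.19e-06). Pvrl3, which encodes nectin 3, a partner of cadherin junctions, fell 1.97-fold to 99.4 ± 14.1 CPM (adjusted p = 1.63e-05).

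Of 16 planar cell polarity partners of the Celsr proteins, 5 were higher and 2 lower in DP against PP, and 2 were higher and 10 lower in Neuron against DP. In either direction these are 43.8% and 75.0%, near the shares of all features. By direction the list leaned to lower levels in Neuron, with a median log2 difference from DP of -0.33, against -0.04 for all features. Prickle1, a cytoplasmic component of the core complex, rose 9.18-fold from 5.14 ± 0.416 to 47.2 ± 2.37 CPM at the step to Neuron (adjusted p = 1.09e-09). The receptor gene Fzd6 fell from 5.74 ± 1.88 to 0.270 ± 0.129 CPM (21.6-fold, adjusted p = 7.07e-07). From PP to DP the highest and lowest were Ankrd6, encoding Diversin, 1.51-fold higher (adjusted p = 0.000541), and Prickle4, at 1.23-fold lower (adjusted p = 0.0197).

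Of the 23 genes of the Dachsous and Hippo pathway, 22 were tested. In DP against PP 7 were higher and 8 lower, and in Neuron against DP 4 were higher and 14 lower (68.2% and 81.8%). At the step to Neuron the median log2 difference of the list was -0.79, against -0.04 for all features. Wwtr1, which encodes the transcriptional co-activator TAZ, fell 1.74-fold from PP to DP (adjusted p = 0.000768) and then 73.3-fold, from 88.1 ± 19.7 to 1.20 ± 0.167 CPM (adjusted p = 2.67e-10). Amot, encoding the TAZ- and YAP-binding angiomotin, rose 2.28-fold from PP to DP (adjusted p = 1.51e-05). Wwc1, encoding the upstream regulator KIBRA, rose 2.04-fold to 306.9 ± 25.8 CPM in Neuron (adjusted p = 2.14e-07). Dchs1, the ligand of Fat4, had means of 468.2 ± 24.4 CPM in PP, 744.1 ± 27.1 in DP and 1028 ± 106 in Neuron. Dchs1 rose 1.59-fold and 1.38-fold (adjusted p = 6.88e-05 and 0.000367), and was named after its values were seen.

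Of 8 enzymes that cleave cadherins, 3 were higher and 1 lower in DP against PP, and 3 were higher and 2 lower in Neuron against DP (50.0% and 62.5%). Aph1b, a gamma-secretase subunit, rose 3.23-fold to 105.3 ± 4.75 CPM in Neuron (adjusted p = 1.89e-08). Adam17, a sheddase, was 1.21-fold below PP in DP (adjusted p = 0.00933) and 1.70-fold below DP in Neuron (adjusted p = 1.97e-06), and Ncstn rose 1.53-fold from PP to DP (adjusted p = 8.57e-05). Of 10 tested genes of the WAVE complex, 2 were higher and 2 lower in DP against PP, and 5 were higher and 2 lower in Neuron against DP. In either direction these are 40.0% and 70.0%, near the shares of all features. Wasf1, the neuronal WAVE, rose 1.95-fold to 131.4 ± 13.3 CPM (adjusted p = 3.28e-06), Wasf2 fell 3.03-fold to 31.0 ± 2.88 CPM (adjusted p = 4.73e-09), and Cyfip2 rose 1.57-fold from PP to DP (adjusted p = 0.00378). The 2 WAVE genes lower in DP against PP, Abi3 and Nckap1l, are known from cells of the blood lineage and were named after their values were seen. Abi3 went from 4.74 ± 2.23 to 0.168 ± 0.121 CPM (28.3-fold, adjusted p = 1.4e-05), and Nckap1l from 1.48 ± 0.42 to 0.484 ± 0.053 CPM (3.04-fold, adjusted p = 0.00243). Summed microglia markers ran from 10.4 to 13.9 CPM in PP, from 6.08 to 8.10 in DP and from 1.66 to 3.29 in Neuron, and red blood cell genes were also highest in PP. Of 9 microglia markers tested, 3 were lower in DP against PP, none of the 10 listed was at 0 in all libraries, and their part in the result was not tested.

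Other genes of the cadherin superfamily, such as desmosomal cadherins and calsyntenins, numbered 8 tested of 14, with 3 higher and 1 lower in DP against PP and 6 higher and 2 lower in Neuron against DP (50.0% and every one of the tested genes). Clstn2, a postsynaptic calsyntenin, rose 2.12-fold from PP to DP (adjusted p = 0.000907) and 17.3-fold to 126.0 ± 34.2 CPM in Neuron (adjusted p = 2.73e-09). Clstn1, a calsyntenin of axonal transport, was 1.42-fold below PP in DP (adjusted p = 0.000674).

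Several members are neighbours on the chromosome, and neighbours did not always share a course. On chromosome 15 of mm9, Cdh6, Cdh9, Cdh10, Cdh12 and Cdh18 follow each other with gaps of 3.60, 1.96, 2.1 and 0.96 Mb. Cdh6 was lower in Neuron against DP, and the next 4 were higher, where 33.1% of all features were higher. The calls of Cdh6 and Cdh10 at this step were lost in 4 and 6 of 17 alternatives. Cdh9 and Cdh18 had only 92 and 96 reads in Neuron. On chromosome 14, Pcdh8, Pcdh17, Pcdh20 and Pcdh9 follow with gaps of 4.67, 3.93 and 4.54 Mb. All 4 were higher in Neuron against DP, beside the same 33.1% of all features. From PP to DP, Pcdh8 and Pcdh9 at the ends of this row were lower, Pcdh20 was higher and Pcdh17 did not pass. On chromosome 1, Cdh20 fell and Cdh7 rose at both steps, 4.99 Mb apart.

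An unannotated transcript of the deposited tables lies 115 bases from Celsr1 on the other strand (mm9 chr15:85864322-85870855). It read 10.7, 10.3 and 11.2 CPM in PP, against 9.46, 11.5 and 11.8 in DP and 1.29, 0.752 and 0.798 in Neuron. The transcript was 11.6-fold below DP in Neuron (log2 -3.53 ± 0.19 SE, adjusted p = 1.18e-08), in the same direction as Celsr1. Another lies 52 bases from Pcdh11x on the other strand and averaged 1.23 ± 0.113 CPM in PP, 0.558 ± 0.129 in DP and 0.122 ± 0.0187 in Neuron. This transcript was lower at both steps (adjusted p = 0.00201 and 6.77e-05), while Pcdh11x was higher in Neuron against DP. The only other one found lies 38873 bases from Pcdh12 on the other strand, at means of 3.86, 3.07 and 4.77 CPM in PP, DP and Neuron. It was higher in Neuron against DP (log2 0.64 ± 0.17 SE, adjusted p = 0.0062), a step at which Pcdh12 did not pass.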

How the data were processed

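Poly-A RNA was measured in 18 samples, which are 9 libraries of 3 sorted groups with 2 runs each. The authors deposited whole-number counts per gene for each run. Per the submitters' processing notes, the tools were featureCounts 1.4.4, TopHat2 2.0.10, Cufflinks 2.1.1, Bowtie2 2.2.1, DESeq2 1.4.5, BWA 0.5.9-r16, bcl2fastq 1.8.2, DESeq and bedtools 2.16.2, in no stated order, with build mm9. The count tables hold 37620 annotated genes and 630 unannotated transcripts, and 1 further row that matched the naming rule, a pseudogene, was left out. The authors also deposited log2 fold changes and adjusted p-values for DP against PP and Neuron against DP, and 24 normalised columns of single libraries in those tables were not used.

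Counts of both runs of a library were added. Columns name libraries by numbers that the labels lack, so columns were tied to groups only. A chi-square per degree of freedom of 7.92 to 29.09 put all libraries of a group apart beyond counting noise. The quasi-likelihood test of edgeR 4.0.16 (R 4.3.3) was run with TMM scaling and filterByExpr on all 9 libraries. The SE is the log2 fold change divided by the square root of F. RPKM is CPM divided by the gene model length in kilobases. Counts limit precision for members with few reads, whose reads are given. Alternatives were DESeq2 1.42.0, upper-quartile scaling, no filter, the 2 groups alone, each run alone, each library left out in turn, L222, L223 and L224 left out together, and a block for libraries with consecutive numbers. In that block (L222 to L224, L355 to L357, L393 to L395), libraries deviated together from their group means, with r from 0.13 to 0.345 over all features tested for the 9 pairs inside it.

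The members and gene lists were chosen with earlier results of these data known. Members that passed, differed at least 2-fold in a comparison and reached 5 CPM were described in full, as were Cdh2, Cdh5, Celsr2 and Pcdh12, which were added after their values were seen. Of each pathway list, the genes with the highest and the lowest log2 fold change past the threshold, with at least 5 CPM in the higher group, were named. Unannotated transcripts were sought within 100 kb of a member. Dchs2, Brk1, Dsg3, Map2 and Krt5 were not found under these symbols.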

Additional observations from a re-analysis of the deposited data

How the results depend on the processing

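Of 85 calls on single members, 74 held in each of the alternatives (17 in all) in which the member was tested, 11 were lost in at least 1, and 0 reversed. Of 29 differences that did not pass, 10 passed in at least 1 alternative. The lost and gained calls stand beside the results above, and the cause was not tested. Few reads limit Cdh1, Cdh3, Cdh9, Cdh12, Cdh15, Cdh17, Cdh18 and Pcdh12, and some of these were not tested on 1 run alone. Members higher in DP than in both other groups numbered 1, but 2 with upper-quartile scaling, 2 with only the groups compared in the fit and 0 on paired-end runs, and from 1 to 2 with 1 library left out, where Pcdh15 was the addition without PP library L355. On single-read runs the 1 such member was Pcdh15 (Neuron against DP log2 -0.49, adjusted p = 0.0197) and not Cdh1. Cdh1 was tested in 15 of the 17 alternatives, and on neither run alone. Members lower in DP than in both numbered from 6 to 8. Upper-quartile scaling moved the median log2 difference of all features between Neuron and PP from -0.042 to -0.163, and directions of the members' calls stayed as reported. The fit with a replicate block of consecutive library numbers was chosen after seeing the data, and no label ties these numbers to the replicate numbers of the samples. Pairs outside a block correlated from -0.319 to 0.0106, and 9 of 9 libraries correlated best with their own block in both other groups. With the block, 12 members rose and 14 fell from PP to DP, 24 rose and 6 fell from DP to Neuron, and 22 and 9 did so from PP to Neuron. It added the 2 calls given above for Fat1 and Pcdh19 and took none away.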
